A study of Mus musculus with 12 samples.

Results

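Chemokine ligands are small secreted proteins that direct the migration of leukocytes. They were followed here as every protein coding gene named Ccl, Cxcl, Xcl or Cx3cl with a number, without Ccl6, Ccl19 and Ccl21a, which gave 36 genes of 56748 in the table. The libraries were made from whole lung of mice that carry MMTV-PyMT, an oncogene under the mouse mammary tumour virus promoter whose mammary tumours spread to the lung. Lungs were collected at 4.5 months and labelled as lung metastasis, with 4 libraries of each of 3 genotypes. The S1pr1 KO group is MMTV-Cre;S1pr1fl/fl; MMTV-PyMT, the C3 KO group is MMTV-Cre;C3Tdt:MMTV-PyMT, and the WT group has the strain label MMTV-PyMT, while the design text gives it MMTV-Cre as well. S1pr1 is a receptor for sphingosine-1-phosphate and C3 is the central complement protein, and the series set out to compare their conditional loss with WT. The MMTV promoter that drives Cre in these mice is used for expression in mammary epithelium, and in which cells of the lung Cre acted was not tested. The labels do not state whether the 4 libraries of a genotype are from different mice, and the p-values therefore describe only how these libraries vary.

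Chemokines are grouped by the spacing of their first cysteines into the CC, CXC, XC and CX3C families, and they act on G protein-coupled receptors of leukocytes, named Ccr, Cxcr, Xcr and Cx3cr. Homeostatic ligands such as Cxcl12 and Cxcl13 are made steadily by stroma and guide the traffic and positioning of resting leukocytes. Inflammatory ligands such as Cxcl1, Cxcl2 and Ccl2 are switched on by cytokines and microbial products and recruit neutrophils and monocytes, and in the lung the airway and alveolar epithelium, macrophages, dendritic cells and endothelium all make some of them.

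Library totals ranged from 32274797 to 53063470 counts. The targeted genes went against the label in 2 libraries. C3 was at 475, 465 and 601 CPM (counts scaled to the TMM-adjusted library total) in C3 KO 1, 2 and 3, but the library labelled C3 KO 4 had 1416 CPM, against 787 to 1025 CPM in WT. S1pr1 KO 1, 3 and 4 had 132, 142 and 154 CPM of S1pr1, but the library labelled S1pr1 KO 2 had 366 CPM, against 295 to 491 CPM in WT. Both libraries stayed in the groups their labels give, and some of the values that moved when either was left out are also given without it. The library labelled S1pr1 KO 2 had a summed cardiomyocyte marker level of 3269 CPM. S1pr1 KO 1, 3 and 4 had 813, 1528 and 1154 CPM, also above the 173 to 670.0 CPM of WT libraries. Of 11 cardiomyocyte genes, 2 rose in S1pr1 KO against WT by the edgeR test given below, with a median log2 fold change of 1.85. Adipocyte markers summed to 530.1 CPM in the library labelled S1pr1 KO 2 and to 45.7 to 114 CPM in WT. S1pr1 KO 1, 3 and 4 had 59.7, 151 and 126 CPM of them. Skeletal muscle markers summed to 262 CPM in WT 2 and 181 CPM in the library labelled S1pr1 KO 2. WT 1, 3 and 4 had 15.1, 15.4 and 12.8 CPM. C3 KO 3 had 24900 CPM of erythroid markers and 1444 CPM of neutrophil markers, against 966 to 2714 CPM and 346 to 533 CPM in WT. In whole tissue, fewer cells of a type and less RNA per cell cannot be told apart.

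No chemokine ligand passed edgeR's quasi-likelihood test at a Benjamini-Hochberg adjusted p of 0.05 in any of the 3 comparisons. Of the 36 ligands, 30 had enough counts to be tested. For S1pr1 KO against WT, 0 of 30 were called, where 1.35% of the 20229 genes tested were. The count was 0 of 30 for C3 KO against WT, where 0.00989% of genes were called, and 0 of 30 for S1pr1 KO against C3 KO, where 0% of genes were. At an unadjusted p under 0.05 the ligands numbered 4, 2 and 4 in those comparisons, beside 18%, 11% and 12% of all genes tested. DESeq2 called 1 ligand in S1pr1 KO against WT, Ccl28, 1 in C3 KO against WT, Cx3cl1, and 0 in S1pr1 KO against C3 KO, and limma voom with quality weights called 0 in each. The median log2 fold change of the 30 ligands was 0.08 in S1pr1 KO against WT, 0.02 in C3 KO against WT and −0.07 in S1pr1 KO against C3 KO. Over all genes tested those medians were −0.0011, −0.00099 and 0.0031. The signs of the ligand medians were not stable. When the library labelled C3 KO 4 was left out, the median was −0.19 in C3 KO against WT and 0.24 in S1pr1 KO against C3 KO. Leaving out the library labelled S1pr1 KO 2 gave −0.022 in S1pr1 KO against WT, and leaving out both libraries gave −0.077.

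**Figure D1:**
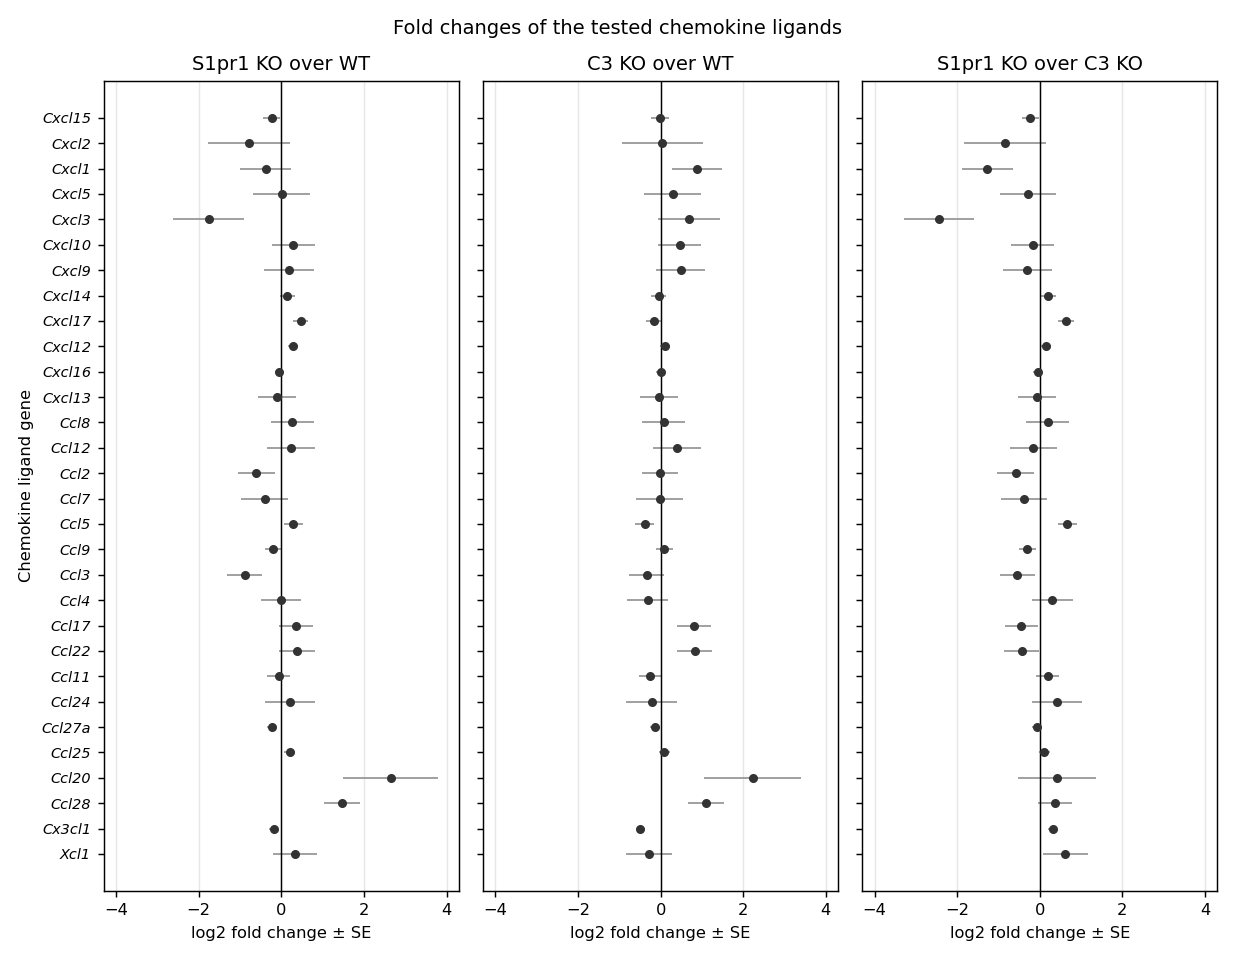
Log2 fold change from edgeR with its standard error (horizontal axis) for each of the 30 tested ligands (vertical axis), with a panel for each of the 3 comparisons. Most ligands lie near 0, Ccl20 and Ccl28 are above 0 in both knockouts against WT, and Cxcl3 is at −2.45 in S1pr1 KO against C3 KO.

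The groups of 4 libraries overlapped for most ligands and for most of all genes tested. In S1pr1 KO against WT the libraries did not overlap for 1 of 30 ligands, Cxcl3, beside 11.3% of all genes tested. In C3 KO against WT this held for 1 ligand, Cx3cl1, beside 6.09% of genes, and in S1pr1 KO against C3 KO for 3 ligands, Ccl5, Cxcl17 and Cxcl3, beside 6.4% of genes. These counts of ligands are small, and whether their shares differ from those of all genes was not tested. The comparisons against WT share the WT libraries, and both comparisons of S1pr1 KO share its libraries.

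Among the 36 ligands, a few epithelial and stromal genes made up most of the summed level. In FPKM (fragments scaled to gene length and library size), which allows genes to be compared, Cxcl15 had a mean of 266 over the 12 libraries, with a range of 198 to 399. Cxcl14 had a mean of 81.8 FPKM, Cxcl17 36.9 FPKM, Cxcl12 32.8 FPKM and Cx3cl1 21.2 FPKM. Cxcl15 ranged well above Cxcl14, whose highest library reached 109 FPKM, whereas the ranges of Cxcl17 (24.7 to 64.9 FPKM) and Cxcl12 (24.9 to 38.9 FPKM) overlapped. Ccl5 had 21.0 FPKM, Cxcl16 16.9 FPKM and Ccl17 11.6 FPKM, so that 8 ligands averaged at least 10 FPKM. Another 13 averaged between 1 and 10 FPKM and 15 were under 1 FPKM. Cxcl15 alone made up 43.3% to 60.3% of the summed ligand FPKM of a library, and the 5 highest ligands 70.5% to 86.9%.

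**Figure D2:**
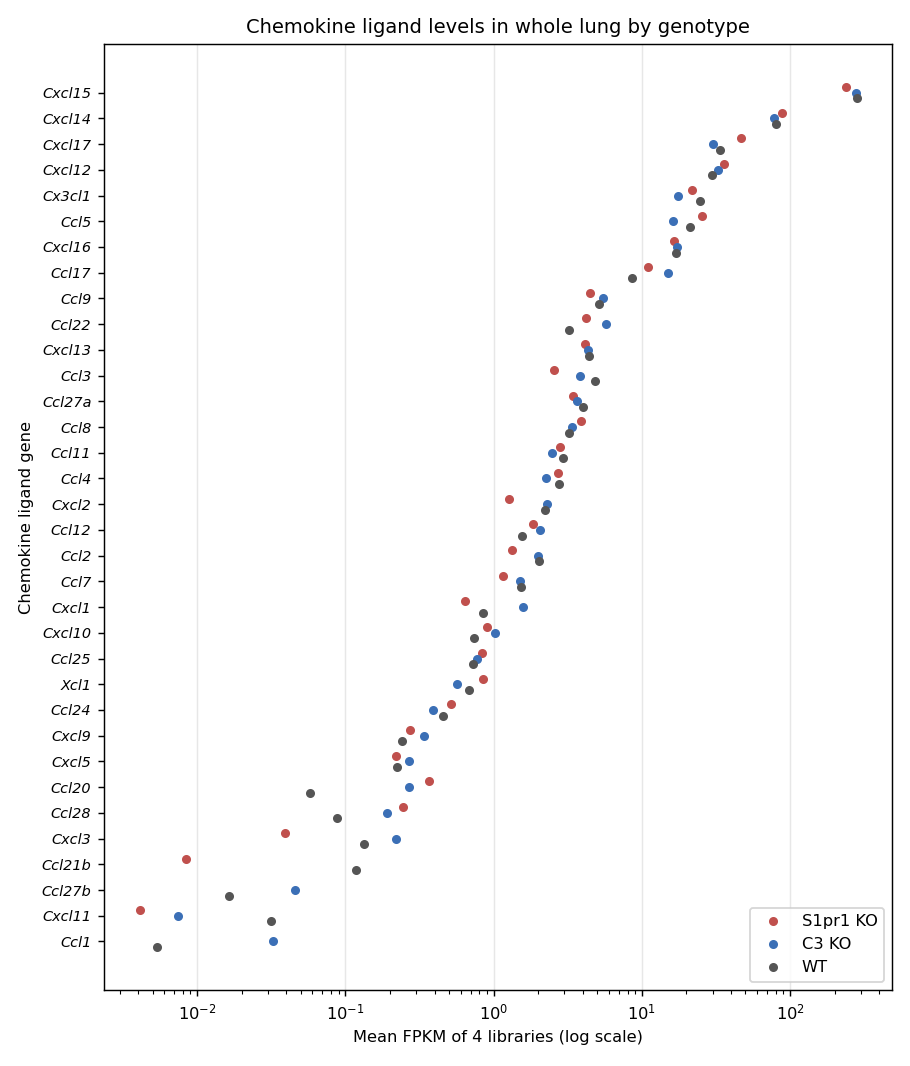
Mean FPKM of 4 libraries (horizontal log axis) for each chemokine ligand (vertical axis, ordered by level), with a point for S1pr1 KO, C3 KO and WT; the 2 genes at 0 in every library and group means of 0 are not drawn. Levels span from Cxcl15 at 266 FPKM over all libraries to genes under 1 FPKM, and the 3 genotypes lie close together for the abundant ligands.

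The ligands sit in a few gene clusters. Of the 36, 11 are on chromosome 11, which holds the monocyte and macrophage CC ligands, and 11 are on chromosome 5, which holds most CXC ligands. Chromosomes 8 and 4 hold 4 each, chromosomes 1 and 13 hold 2 each, and Cxcl12 and Cxcl17 stand alone on chromosomes 6 and 7. On chromosome 8, Ccl22 (GRCm39, 95472218 to 95478327), Cx3cl1 (95498637 to 95509055) and Ccl17 (95537081 to 95538664) are neighbours. Some ligands overlap a gene on the other strand in the deposited annotation, among them Cxcl16 with Zmynd15, Ccl27a with Il11ra1, Ccl25 with Elavl1, Cxcl17 with 4732471J01Rik, and Cxcl10 and Cxcl11 with Art3. No source used here gives the strand setting of the counting, which leaves their counts uncertain to that extent.

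Among the neutrophil-attracting CXC ligands, Cxcl1, Cxcl2, Cxcl3 and Cxcl5 act on Cxcr2, the receptor that draws neutrophils out of blood, and Cxcl15 (lungkine) is a lung epithelial chemokine that attracts neutrophils. Of these 5 ligands, 0 passed the edgeR test in any comparison. Cxcl15 was at 525, 528, 429 and 552 CPM in S1pr1 KO libraries, 538, 710.0, 675 and 454 CPM in C3 KO libraries and 855, 672, 450.1 and 423 CPM in WT libraries. The groups overlapped and the WT libraries spread the most. Between S1pr1 KO and WT the log2 fold change of Cxcl15 was −0.24 ± 0.21 (SE, 4 libraries each, edgeR adjusted p = 0.603), with −0.018 when WT 1 was left out and −0.37 when WT 4 was.

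Cxcl1 (ENSMUSG00000029380, at 91039100 to 91040974 of chromosome 5), Cxcl2 (ENSMUSG00000058427, 91051730 to 91053797) and Cxcl3 (ENSMUSG00000029379, 90933962 to 90937459) lie in the same cluster. Cxcl3 was at 0.133, 0.199, 0.186 and 0.0297 CPM in S1pr1 KO libraries, 0.289, 0.234, 0.222 and 2.30 CPM in C3 KO libraries and 0.913, 0.411, 0.234 and 0.329 CPM in WT libraries. These levels rest on counts of 1 to 8 per S1pr1 KO library, 8 to 90 per C3 KO library and 8 to 39 per WT library. In CPM every S1pr1 KO library was below every C3 KO and every WT library, and the library labelled C3 KO 4 stood far above all others. The library labelled S1pr1 KO 2 had 8 counts, as did WT 3, C3 KO 2 and C3 KO 3, so the groups were apart only after scaling to library size. Cxcl3 had a log2 fold change of −2.45 ± 0.85 in S1pr1 KO against C3 KO (edgeR adjusted p = 0.303) and −1.76 ± 0.86 in S1pr1 KO against WT (edgeR adjusted p = 0.306). With the library labelled C3 KO 4 left out, the S1pr1 KO against C3 KO value was −0.83.

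Cxcl2 was at 7.82, 1.51, 0.558 and 0.623 CPM in S1pr1 KO libraries, 2.603, 1.70, 0.805 and 13.9 CPM in C3 KO libraries and 7.82, 7.08, 0.820 and 2.80 CPM in WT libraries. Each group held libraries above 7 and below 1 CPM, and the range within a group exceeded any difference between groups. Its log2 fold change in S1pr1 KO against WT was −0.79 ± 0.99 (edgeR adjusted p = 0.735), and leaving out 1 library at a time gave −2.35 (S1pr1 KO 1 left out) to −0.41 (WT 1 left out). Cxcl1 was at 2.31, 1.04, 0.903 and 0.594 CPM in S1pr1 KO libraries, 1.94, 2.69, 0.972 and 6.22 CPM in C3 KO libraries and 2.22, 2.496, 1.20 and 0.466 CPM in WT libraries. Its groups overlapped as well, with a log2 fold change of 0.89 ± 0.60 in C3 KO against WT (edgeR adjusted p = 0.631) that was 0.22 with the library labelled C3 KO 4 left out and 0.58 with WT 4 left out. Between S1pr1 KO and C3 KO it was −1.27 ± 0.61 (edgeR adjusted p = 0.435), and −0.60 with that library left out. Leaving out S1pr1 KO 1 gave −1.80. Neutrophil marker genes, of which 11 of 11 were tested, summed to 314 to 549 CPM in S1pr1 KO, 147 to 1444 CPM in C3 KO and 346 to 533 CPM in WT, with the lowest sum in the library labelled C3 KO 4, and their part in these levels was not tested.

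The promoters of Cxcl1, Cxcl2, Cxcl3 and Ccl20 are shown because they hold a kappa B match and the genes are among the 10 ligands whose level in the library labelled C3 KO 4 was at least 3 times that of the rest of its group. They were chosen after the matches were seen. Of the other ligands of that set, Cxcl9, Cxcl13, Ccl8, Ccl17 and Ccl22 have a promoter entry and hold no match, and Cxcl5 was not matched to an entry. Each is 300 bases on the plus strand, from 250 before the start of the gene to 50 after it, from RefSeq on GRCm38.p6, which is another build than that of the deposited coordinates. The capitals mark matches to the kappa B consensus, the sequence to which NF-kB binds, on either strand. The regions are chr5:90890995-90891294 for Cxcl1, chr5:90903649-90903948 for Cxcl2, chr5:90785851-90786150 for Cxcl3 and chr1:83116516-83116815 for Ccl20.
Cxcl1: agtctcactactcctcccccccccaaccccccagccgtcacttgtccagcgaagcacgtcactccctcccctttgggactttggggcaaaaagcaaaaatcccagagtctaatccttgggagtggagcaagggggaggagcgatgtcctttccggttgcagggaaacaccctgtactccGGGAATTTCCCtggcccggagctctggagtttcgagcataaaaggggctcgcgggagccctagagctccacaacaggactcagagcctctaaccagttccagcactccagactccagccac
Cxcl2: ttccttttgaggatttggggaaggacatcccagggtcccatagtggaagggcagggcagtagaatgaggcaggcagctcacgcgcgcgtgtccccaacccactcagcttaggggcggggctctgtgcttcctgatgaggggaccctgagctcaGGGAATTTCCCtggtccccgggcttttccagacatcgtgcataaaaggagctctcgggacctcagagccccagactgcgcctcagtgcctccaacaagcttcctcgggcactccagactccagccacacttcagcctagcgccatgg
Cxcl3: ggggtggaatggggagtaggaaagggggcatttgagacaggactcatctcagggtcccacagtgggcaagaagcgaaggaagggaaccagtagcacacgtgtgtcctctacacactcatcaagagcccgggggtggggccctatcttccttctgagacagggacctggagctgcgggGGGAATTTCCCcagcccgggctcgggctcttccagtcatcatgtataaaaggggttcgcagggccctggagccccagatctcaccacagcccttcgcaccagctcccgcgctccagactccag
Ccl20: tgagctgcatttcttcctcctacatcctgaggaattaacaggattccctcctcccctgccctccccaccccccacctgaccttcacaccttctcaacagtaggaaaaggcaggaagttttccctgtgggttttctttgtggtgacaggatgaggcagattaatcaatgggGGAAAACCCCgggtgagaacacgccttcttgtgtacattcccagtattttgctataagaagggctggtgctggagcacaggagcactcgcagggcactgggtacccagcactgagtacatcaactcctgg

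The 3 CXC promoters hold the same run of 11 bases, GGGAATTTCCC, in which a match on each strand overlaps. It begins 71 bases before the start in Cxcl1, 97 in Cxcl2 and 73 in Cxcl3, while the Ccl20 match begins 80 bases before the start. Promoter entries were found for 25 of the 36 ligands, and 8 of these 25 hold a kappa B match, where 8.46% of 32851 mouse promoters of the same length do. The other 4 are Cxcl10, Ccl1, Ccl9 and Ccl27a. In the library labelled C3 KO 4, Cxcl10, Ccl9 and Ccl27a were at 1.89, 1.17 and 1.13 times the mean of the other C3 KO libraries. Ccl1 was too low to test, with 12 counts there and 0 in each of the other C3 KO libraries. The AP-1 letters TGANTCA were found in 6 of 25 and in 7.81% of all promoters, also on either strand. A ligand was counted where any of its promoter entries matched, whereas both percentages are over single entries. The counts and percentages are therefore not in the same unit. A match describes these letters in this window only.

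The interferon-inducible ligands Cxcl9, Cxcl10 and Cxcl11 bind Cxcr3 on activated T cells and NK cells. Cxcl9 was at 0.833, 0.696, 0.930 and 0.861 CPM in S1pr1 KO libraries, 0.549, 0.468, 0.250 and 2.79 CPM in C3 KO libraries and 0.749, 0.604, 0.439 and 1.13 CPM in WT libraries. S1pr1 KO libraries lay close together within the WT range, and 1 C3 KO library was above all others. Cxcl10 ranged from 1.60 to 2.499 CPM in S1pr1 KO, 1.08 to 3.58 CPM in C3 KO and 0.234 to 2.62 CPM in WT. Cxcl11 was too low to test, with 0 to 11 counts per library. Of the 24 listed interferon gamma response genes, 22 were tested and 0 were called in S1pr1 KO against WT by edgeR, where 15 were above 0 and the median log2 fold change was 0.16. Cxcr3 was at 1.51 to 2.10 CPM in S1pr1 KO, 2.22 to 2.46 CPM in C3 KO and 1.95 to 2.598 CPM in WT, and it did not pass either.

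Of the homeostatic and other CXC ligands, Cxcl12 keeps Cxcr4-bearing cells in marrow and other niches, and Cxcl13 draws B cells into follicles. Cxcl12 (ENSMUSG00000061353, at 117145496 to 117158328 of chromosome 6) was at 309, 268, 287 and 320.3 CPM in S1pr1 KO libraries, 257, 319, 271 and 216 CPM in C3 KO libraries and 277, 261, 238 and 204 CPM in WT libraries. S1pr1 KO libraries were the highest on average, but the library labelled S1pr1 KO 2, whose S1pr1 level was within the WT range, was below WT 1. The other S1pr1 KO libraries were above every WT library. The log2 fold change in S1pr1 KO against WT was 0.27 ± 0.12 (edgeR adjusted p = 0.250), and in C3 KO against WT it was 0.12 ± 0.12 (edgeR adjusted p = 0.774). The C3 KO against WT value ranged from 0.022 with C3 KO 2 left out to 0.21 with the library labelled C3 KO 4 left out. Cxcr4 had a log2 fold change of −0.48 ± 0.19 in S1pr1 KO against WT (edgeR adjusted p = 0.200).

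Cxcl17, a mucosal chemokine of airway epithelium (ENSMUSG00000060188, at 25099478 to 25112311 of chromosome 7), was at 27.7, 31.0, 34.3 and 49.7 CPM in S1pr1 KO libraries, 23.4, 21.8, 19.3 and 27.2 CPM in C3 KO libraries and 19.0, 26.6, 31.9 and 25.9 CPM in WT libraries. All 4 S1pr1 KO libraries were above all 4 C3 KO libraries, though S1pr1 KO 1 at 27.7 CPM was close to the library labelled C3 KO 4 at 27.2 CPM. Its log2 fold change in S1pr1 KO against C3 KO was 0.64 ± 0.19 (unadjusted p = 0.00542, edgeR adjusted p = 0.258). That value ranged from 0.435 with S1pr1 KO 4 left out to 0.74 with S1pr1 KO 1 left out. It was 0.73 with the library labelled C3 KO 4 left out. Set against WT, the value was 0.47 ± 0.19 in S1pr1 KO (edgeR adjusted p = 0.215) and in C3 KO −0.17 ± 0.19 (edgeR adjusted p = 0.796). The S1pr1 KO value was 0.27 when S1pr1 KO 4 was left out. The C3 KO value ranged from −0.30 with WT 1 left out to −0.050 with WT 3 left out, and was −0.26 when the library labelled C3 KO 4 was left out.

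Airway epithelial markers are given beside Cxcl17. Of 12 ciliated cell genes, 4 rose in S1pr1 KO against WT by edgeR and all 12 were above 0, with 0.60 as the median log2 fold change and a summed level of 2167 to 2771 CPM in S1pr1 KO, 1803 to 2534 CPM in C3 KO and 1653 to 2261 CPM in WT. Of 11 club cell genes, 0 were called and 9 were above 0, with a median of 0.71 and summed levels of 18290 to 28960 CPM in S1pr1 KO, 21440 to 27380 CPM in C3 KO and 21440 to 33570 CPM in WT. No listed ciliated or club cell gene was at 0 in all libraries, and their part in the Cxcl17 level was not tested.

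Cxcl14, made by epithelium and fibroblasts, was at 201, 164, 139.9 and 144 CPM in S1pr1 KO libraries, 160.2, 186, 118 and 102 CPM in C3 KO libraries and 168, 168, 129.7 and 119.5 CPM in WT libraries. The groups overlapped throughout, with a log2 fold change of 0.15 ± 0.19 in S1pr1 KO against WT (edgeR adjusted p = 0.739) that ranged from 0.026 with S1pr1 KO 1 left out to 0.22 with WT 2 left out. Cxcl16, a membrane-bound ligand of Cxcr6 made by macrophages and endothelium, was even between libraries, at 44.4 to 55.8 CPM in S1pr1 KO, 45.3 to 61.7 CPM in C3 KO and 45.0 to 60.3 CPM in WT. Cxcl13 was at 2.54, 6.71, 4.51 and 5.28 CPM in S1pr1 KO libraries, 2.95, 2.93, 2.499 and 11.4 CPM in C3 KO libraries and 5.90, 3.54, 6.18 and 4.69 CPM in WT libraries. C3 KO 1, 2 and 3 were below all 4 WT libraries and the library labelled C3 KO 4 was above them.

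Cx3cl1 (fractalkine), a membrane-anchored chemokine of endothelium and epithelium that holds Cx3cr1-bearing monocytes and NK cells, had the lowest p of any ligand. Cx3cl1 (ENSMUSG00000031778) was at 101, 82.5, 85.6 and 72.9 CPM in S1pr1 KO libraries, 80.0, 67.4, 67.2 and 61.8 CPM in C3 KO libraries and 97.2, 102, 84.0 and 105 CPM in WT libraries. All 4 C3 KO libraries were below all 4 WT libraries, while the S1pr1 KO libraries overlapped both groups. The means were 69.1 ± 7.70 CPM in C3 KO and 97.0 ± 9.22 CPM in WT (SD, n = 4 each). Its log2 fold change in C3 KO against WT was −0.49 ± 0.11 (unadjusted p = 0.000591, edgeR adjusted p = 0.242), which missed the threshold over 20229 genes. DESeq2 gave −0.48 with an adjusted p of 0.0095.

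Leaving out each library in turn gave values from −0.56 to −0.44 for Cx3cl1 in C3 KO against WT. The value was −0.44 when the library labelled C3 KO 4, which had the lowest Cx3cl1 of all 12 libraries, was left out. Between S1pr1 KO and WT the log2 fold change was −0.18 ± 0.11 (edgeR adjusted p = 0.403), or −0.11 with S1pr1 KO 4 left out, and in S1pr1 KO against C3 KO it was 0.31 ± 0.11 (edgeR adjusted p = 0.303). Capillary and venous endothelial markers, all 13 of them tested and none at 0 in all libraries, summed to 4761 to 5575 CPM in S1pr1 KO, 4570 to 6558 CPM in C3 KO and 5861 to 6460 CPM in WT. Of the 13, edgeR called 0 in C3 KO against WT, where the median log2 fold change was −0.087, and 1 fell in S1pr1 KO against WT. The lowest sum was in the library labelled C3 KO 4, and its part in the Cx3cl1 level was not tested. The receptor gene Cx3cr1 was at 10.1 to 24.4 CPM in C3 KO and 8.32 to 34.3 CPM in WT, groups that overlapped. Xcl1, a ligand of T and NK cells that attracts cross-presenting dendritic cells, had 9 to 36 counts per S1pr1 KO library, 1 to 18 per C3 KO library and 10 to 15 per WT library.

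**Figure D3:**
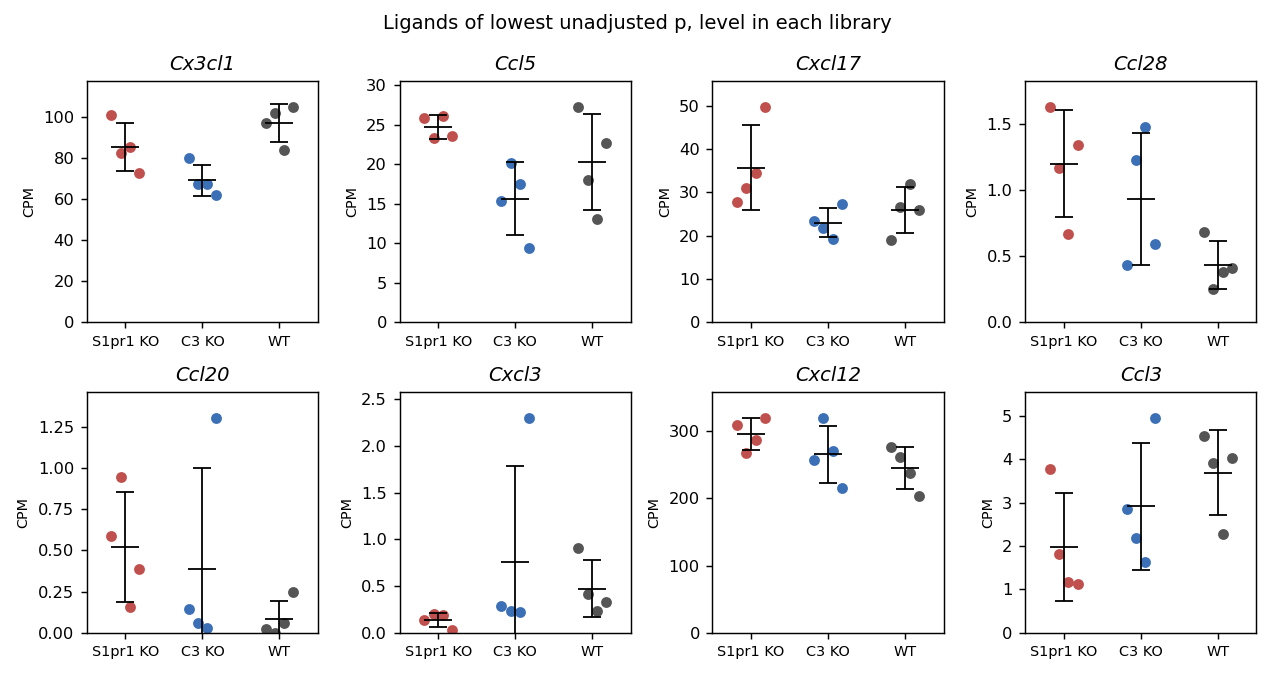
CPM (vertical axis, from 0) of 8 ligands in each of the 4 libraries of S1pr1 KO, C3 KO and WT, with a point per library and the mean ± SD, whose lower end stops at 0. The C3 KO points of Cx3cl1 lie at 61.8 to 80.0 CPM, below the WT points at 84.0 to 105 CPM, and the S1pr1 KO points of Cxcl17 and Ccl5 lie above those of C3 KO.

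The CC ligands Ccl2, Ccl7, Ccl8 and Ccl12 are neighbours on chromosome 11. Ccl2, Ccl7 and Ccl12 attract monocytes through Ccr2, the receptor through which monocytes leave the marrow. Ccl8 was at 2.10, 1.51, 1.78 and 2.58 CPM in S1pr1 KO libraries, 0.868, 0.878, 0.611 and 4.58 CPM in C3 KO libraries and 1.36, 1.65, 1.70 and 1.92 CPM in WT libraries. C3 KO 1, 2 and 3 were below every other library, and the library labelled C3 KO 4 was the highest of 12. With that library left out, Ccl8 had the lowest edgeR adjusted p of the tested ligands in C3 KO against WT, 0.214. In S1pr1 KO against C3 KO it was also the lowest, 0.0764, and neither passed. With all 12 libraries these adjusted p-values were 0.977 and 0.919. Ccl2 was at 2.12, 2.24, 0.664 and 1.04 CPM in S1pr1 KO libraries, 2.49, 1.99, 0.916 and 3.74 CPM in C3 KO libraries and 3.37, 2.36, 1.93 and 1.62 CPM in WT libraries. The groups overlapped, with a log2 fold change of −0.61 ± 0.44 in S1pr1 KO against WT (edgeR adjusted p = 0.514) that was −0.36 with S1pr1 KO 3 left out. Ccl7 and Ccl12 stayed between 0.278 and 2.41 CPM in every library and did not pass in any comparison.

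Of the macrophage and lymphocyte CC ligands, Ccl5 is made by T cells and NK cells, and Ccl3 and Ccl4 by activated macrophages and NK cells. Ccl5 (ENSMUSG00000035042, at 83416604 to 83421344 of chromosome 11) was at 25.9, 23.3, 26.1 and 23.6 CPM in S1pr1 KO libraries, 15.4, 20.2, 17.5 and 9.34 CPM in C3 KO libraries and 27.3, 18.1, 13.1 and 22.7 CPM in WT libraries. All 4 S1pr1 KO libraries were above all 4 C3 KO libraries, and they lay within the WT range. Ccl5 had a log2 fold change of 0.67 ± 0.23 in S1pr1 KO against C3 KO (unadjusted p = 0.0138, edgeR adjusted p = 0.303). Set against WT, it was 0.29 ± 0.23 in S1pr1 KO (edgeR adjusted p = 0.564) and −0.38 ± 0.23 in C3 KO (edgeR adjusted p = 0.586). Leaving out the library labelled C3 KO 4 gave 0.48 between S1pr1 KO and C3 KO and −0.19 between C3 KO and WT, and without WT 1 the C3 KO against WT value was −0.20. Between S1pr1 KO and WT it ranged from 0.12 with WT 3 left out to 0.46 with WT 1 left out.

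Markers of the cell types that make Ccl5 went opposite ways in S1pr1 KO against WT. Of 12 NK cell genes, 2 rose in S1pr1 KO against WT by edgeR, where the median log2 fold change was 1.02, and the list had summed levels of 108 to 136 CPM in S1pr1 KO, 28.8 to 93.5 CPM in C3 KO and 39.0 to 92.0 CPM in WT. Of 14 T cell genes, 2 fell, with a median of −0.96 and summed levels of 30.2 to 64.9 CPM in S1pr1 KO, 67.3 to 106 CPM in C3 KO and 59.98 to 95.6 CPM in WT. None of these genes was at 0 in all libraries, the lowest NK cell sum was again in the library labelled C3 KO 4, and their part in the Ccl5 level was not tested.

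Ccl3 (ENSMUSG00000000982) was at 3.79, 1.81, 1.17 and 1.13 CPM in S1pr1 KO libraries, 2.86, 2.19, 1.64 and 4.96 CPM in C3 KO libraries and 4.54, 3.92, 2.28 and 4.03 CPM in WT libraries. S1pr1 KO 2, 3 and 4 were below every WT library, and S1pr1 KO 1 lay among them. The log2 fold change in S1pr1 KO against WT was −0.89 ± 0.42 (edgeR adjusted p = 0.290), and without S1pr1 KO 1 it was −1.43 (edgeR adjusted p = 0.0918). Under limma voom with quality weights the adjusted p of Ccl3 was 0.0568. In both of these alternatives it was the lowest of the tested ligands, and neither passed. Ccl4 was at 1.20 to 2.97 CPM in S1pr1 KO, 0.916 to 1.87 CPM in C3 KO and 0.439 to 3.42 CPM in WT, so its widest spread was within WT. Ccl9, a macrophage ligand of Ccr1, was at 11.9 to 16.5 CPM in S1pr1 KO, 13.4 to 20.05 CPM in C3 KO and 10.1 to 20.8 CPM in WT.

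Among the ligands tied to type 2 immunity, Ccl17 and Ccl22 are dendritic cell and macrophage ligands of Ccr4, and Ccl11 and Ccl24 (eotaxins) attract eosinophils through Ccr3. Ccl17 was at 6.34, 7.11, 4.01 and 5.31 CPM in S1pr1 KO libraries, 4.60, 5.56, 3.64 and 17.3 CPM in C3 KO libraries and 3.86, 5.08, 4.54 and 4.36 CPM in WT libraries. Ccl22 was at 13.2, 8.64, 8.23 and 8.99 CPM in S1pr1 KO libraries, 8.44, 6.76, 6.86 and 30.9 CPM in C3 KO libraries and 9.64, 6.50, 6.30 and 7.54 CPM in WT libraries. For both genes the library labelled C3 KO 4 was the highest of 12, and the other 3 C3 KO libraries overlapped WT. Between C3 KO and WT the log2 fold change of Ccl17 was 0.80 ± 0.41 (edgeR adjusted p = 0.501) and that of Ccl22 was 0.82 ± 0.43 (edgeR adjusted p = 0.517). They were 0.048 and −0.025 once the library labelled C3 KO 4 was left out.

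Ccl17, in S1pr1 KO against WT, had a log2 fold change of 0.35 ± 0.41 (edgeR adjusted p = 0.708) and Ccl22 of 0.38 ± 0.43 (edgeR adjusted p = 0.700). The Ccl17 value was 0.23 when the library labelled S1pr1 KO 2 was left out, and the Ccl22 value was 0.20 without S1pr1 KO 1. For their receptor gene Ccr4, the library labelled C3 KO 4 had 1.79 CPM and the other C3 KO libraries 0.444 to 0.810 CPM. Ccl11 was at 2.69 to 3.85 CPM in S1pr1 KO, 1.92 to 4.04 CPM in C3 KO and 2.13 to 4.69 CPM in WT, and Ccl24 stayed between 0.111 and 1.10 CPM in every library. Ccl1, a ligand of Ccr8, had 12 counts in the library labelled C3 KO 4 and 0 or 1 in each of the others. Ccl26 had 0 counts in all 12 libraries, which allows up to 0.00655 CPM over all of them at 3 counts, for counting error only.

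Among the CC ligands that home lymphocytes to epithelia, Ccl20 and Ccl28 had the highest log2 fold changes of the 30 tested ligands in both knockouts against WT, and neither passed the edgeR test. Ccl28, made by mucosal and glandular epithelium and bound by Ccr10 and Ccr3, was at 1.63, 1.17, 0.664 and 1.34 CPM in S1pr1 KO libraries, 0.434, 1.23, 1.47 and 0.589 CPM in C3 KO libraries and 0.679, 0.247, 0.381 and 0.411 CPM in WT libraries. Only S1pr1 KO 3, at 0.664 CPM, reached below a WT library, WT 1 at 0.679 CPM. The means were 1.20 ± 0.404 CPM in S1pr1 KO and 0.429 ± 0.181 CPM in WT (SD, n = 4 each). Ccl28 (ENSMUSG00000074715, at 120085355 to 120115895 of chromosome 13) had a log2 fold change of 1.47 ± 0.44 in S1pr1 KO against WT (unadjusted p = 0.00536, edgeR adjusted p = 0.104). DESeq2 gave 1.48 with an adjusted p of 0.0301, and leaving out each library in turn with edgeR gave 1.28 to 1.79.

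Between C3 KO and WT, Ccl28 had a log2 fold change of 1.10 ± 0.44 (edgeR adjusted p = 0.402), and in S1pr1 KO against C3 KO of 0.37 ± 0.41 (edgeR adjusted p = 0.764). That value ranged from 0.13 with C3 KO 1 left out to 0.68 with C3 KO 3 left out, and was 0.20 with the library labelled C3 KO 4 left out. Its counts were 9 to 86 per library, so that each level is known only coarsely. The receptor gene Ccr10 was at 1.35 to 1.79 CPM in S1pr1 KO, 0.972 to 2.20 CPM in C3 KO and 1.26 to 1.38 CPM in WT. The ciliated and club cell levels given for Cxcl17 stand beside Ccl28 too, and their part in it was not tested.

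Ccl20, an epithelial ligand of Ccr6 that attracts dendritic cells and Th17 cells, had 31, 38, 6 and 13 counts in S1pr1 KO libraries, 5, 2, 1 and 51 counts in C3 KO libraries and 1, 0, 2 and 9 counts in WT libraries. That is 0.587, 0.944, 0.159 and 0.386 CPM in S1pr1 KO, 0.145, 0.0585, 0.0278 and 1.30 CPM in C3 KO and 0.0234, 0, 0.0586 and 0.247 CPM in WT. S1pr1 KO 1, 2 and 4 were above every WT library, S1pr1 KO 3 was below WT 4, and among C3 KO libraries only the one labelled C3 KO 4 was above the WT range. Its log2 fold change in S1pr1 KO against WT was 2.65 ± 1.15 (edgeR adjusted p = 0.247). Leaving out 1 library at a time gave 2.20 (the library labelled S1pr1 KO 2 left out) to 4.14 (WT 4 left out). Between C3 KO and WT it was 2.23 ± 1.17 (edgeR adjusted p = 0.514), which became −0.073 with the library labelled C3 KO 4 left out and 3.72 with WT 4 left out. With 12 counts over the 4 WT libraries these folds carry wide errors. The receptor gene Ccr6 was at 0.0994 to 0.637 CPM in S1pr1 KO, 0.691 to 0.868 CPM in C3 KO and 0.264 to 0.576 CPM in WT, with 0 comparisons called by edgeR.

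Ccl25, a gut and thymus ligand of Ccr9, and Ccl27a, a skin ligand of Ccr10, were even between libraries. Ccl25 was at 5.17 to 7.45 CPM in S1pr1 KO, 5.01 to 6.19 CPM in C3 KO and 4.98 to 6.09 CPM in WT, with a log2 fold change of 0.20 ± 0.13 in S1pr1 KO against WT (edgeR adjusted p = 0.459), or 0.11 with S1pr1 KO 4 left out. Ccl27a was at 7.25 to 9.02 CPM in S1pr1 KO, 7.49 to 9.58 CPM in C3 KO and 8.48 to 10.9 CPM in WT, with a log2 fold change of −0.22 ± 0.12 in S1pr1 KO against WT (edgeR adjusted p = 0.365). Ccl27a and Ccl27b, and likewise Ccl21b and Ccl21d, are near-identical copies, so reads may have been split between them or lost, and their values are uncertain. Ccl27b and Ccl21b had 0 counts in most libraries and at most 9 in any, and Ccl21d had 0 counts in all 12.

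A pattern shared by many of the ligands lay in a single library. In the library labelled C3 KO 4, 16 of the 30 tested ligands (53.3%) had their highest level of all 12 libraries, where 10.7% of all genes tested did. Its level was at least 3 times the mean of the other C3 KO libraries for 10 ligands (33.3%), where 0.915% of genes were. The ratios were 17.0 for Ccl20, 9.27 for Cxcl3, 8.18 for Cxcl2, 6.60 for Cxcl9, 6.11 for Cxcl5, 5.83 for Ccl8, 4.20 for Ccl22, 4.08 for Cxcl13, 3.76 for Ccl17 and 3.33 for Cxcl1. Neutrophil, T cell, B cell and type 2 ligands were thus all among them. Other ligands were below the mean of the other C3 KO libraries there. Their ratios were 0.0656 for Xcl1, 0.527 for Ccl5, 0.563 for Ccl28, 0.66 for Cxcl14, 0.709 for Cxcl15, 0.763 for Cxcl12, 0.864 for Cx3cl1 and 0.952 for Ccl24. Cxcl15 and Cxcl14 are the ligands of highest mean FPKM. This library was singled out after its values were seen, and the ratios are a description with no test.

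**Figure D4:**
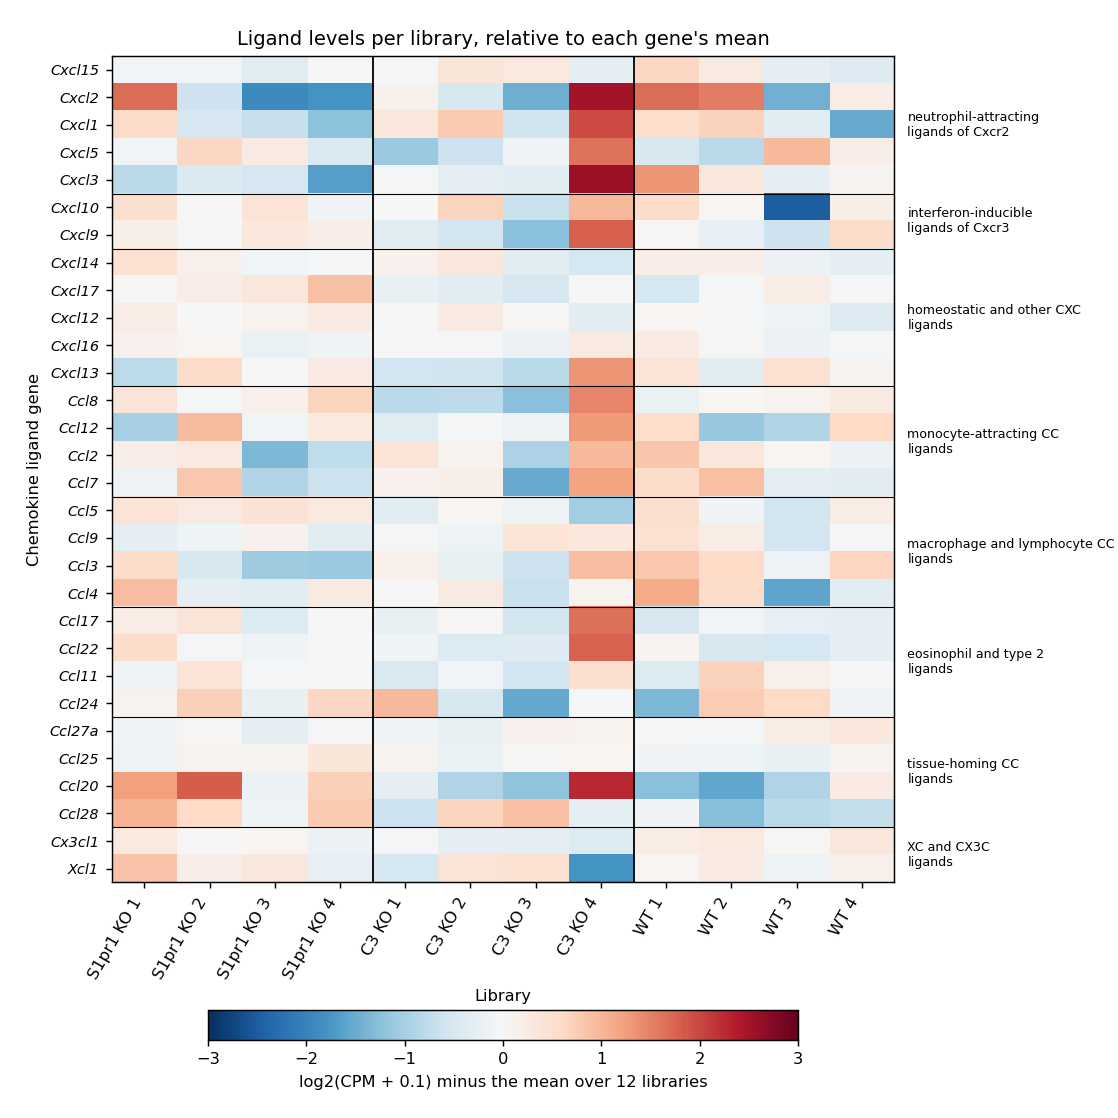
Log2(CPM + 0.1) of the 30 tested ligands (rows) in the 12 libraries (columns, S1pr1 KO, C3 KO, then WT), minus each gene's mean over the 12 libraries, with colours ending at −3 and 3. The column of the library labelled C3 KO 4 holds the highest level of 16 of the 30 ligands.

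Cell type markers in that library differed from the rest of its group as well. Alveolar macrophage genes summed to 1998 CPM there and 683 to 904 CPM in the other C3 KO libraries, and genes of type 2 immunity to 2353 CPM and 1208 to 1454 CPM. Dendritic cell genes summed to 270.5 CPM and 196.5 to 214.9 CPM, and migratory dendritic cell genes to 439.9 CPM and 408.6 to 426.9 CPM. Alveolar type 2 genes summed to 27690 CPM and 20820 to 22170 CPM. The T cell sum of 69.2 CPM lay within the 67.3 to 106 CPM of the other C3 KO libraries. The sums were lower for neutrophils (147 CPM, with 327 to 1444 CPM in the others), B cells (77.3 CPM, with 242 to 262 CPM) and NK cells (28.8 CPM, with 70.9 to 93.5 CPM). Cxcr2, the receptor of Cxcl1, Cxcl2 and Cxcl3, was at 3.04 CPM in it and at 17.4 to 76.1 CPM in the other C3 KO libraries. None of the listed marker genes of these cell types was at 0 in all libraries, and their part in the ligand levels was not tested.

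**Figure D5:**
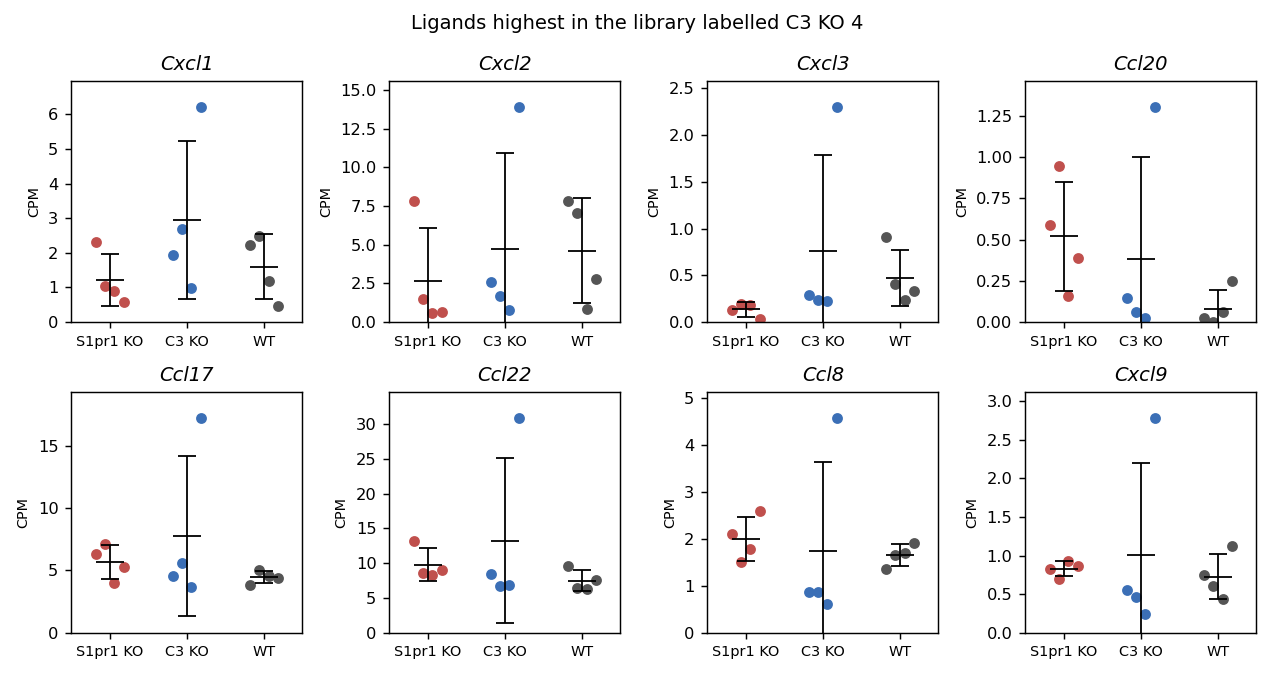
CPM (vertical axis, from 0) of 8 ligands in each of the 4 libraries of S1pr1 KO, C3 KO and WT, with a point per library and the mean ± SD, whose lower end stops at 0. The ligands were chosen because their highest level was in the library labelled C3 KO 4. By that choice, in C3 KO 1 point stands above the other 3 in each panel, such as 30.9 CPM for Ccl22 beside 6.76 to 8.44 CPM.

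Receptor genes on the responding leukocytes were listed for comparison with their ligands. Of 17 chemokine receptors, 0 were called by edgeR in any comparison, and in S1pr1 KO against WT 14 were below 0, with a median log2 fold change of −0.41. Between S1pr1 KO and C3 KO 16 of 17 were below 0, with a median of −0.66, and in C3 KO against WT 6 were below 0, with a median of 0.14. Ccr7, which guides T cells and dendritic cells to lymph nodes, came closest, at 6.99, 3.88, 9.77 and 3.38 CPM in S1pr1 KO libraries, 13.2, 11.4, 16.1 and 12.2 CPM in C3 KO and 18.3, 21.6, 9.55 and 12.97 CPM in WT. S1pr1 KO 3 at 9.77 CPM was just above WT 3 at 9.55 CPM, and the other S1pr1 KO libraries were below all WT libraries. Its log2 fold change in S1pr1 KO against WT was −1.38 ± 0.33 (edgeR adjusted p = 0.0605). The 6 atypical receptors, which bind chemokines without signalling migration, were all below 0 in S1pr1 KO against WT, with a median of −0.23 and 0 called by edgeR. B cell genes, which include cells that carry Cxcr5 and Ccr7, were below 0 for 10 of 10 in that comparison, with a median of −1.25 and 0 called.

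Inflammatory genes that often rise with the ligands did not pass either. Of 20 listed NF-kB genes, 19 were tested, and in S1pr1 KO against WT 17 of 19 were below 0, 0 were called by edgeR and the median log2 fold change was −0.21. In C3 KO against WT 13 of 19 were below 0, with a median of −0.088 and 0 called. The 20 listed NF-kB genes summed to 1280 CPM in the library labelled C3 KO 4 and to 1203 to 1245 CPM in the other C3 KO libraries. Of 20 listed type 2 immunity genes, 15 were tested, and 12 of 15 were above 0 in C3 KO against WT, with a median of 0.13 and 0 called. The platelet chemokines Ppbp and Pf4, which carry no Cxcl symbol in the table, were at 75.8 and 26.9 CPM in C3 KO 3, against 6.91 to 13.6 CPM and 8.42 to 11.9 CPM in WT. Platelet markers summed to 211 CPM in C3 KO 3 and 40.2 to 56.2 CPM in WT.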

How the data were processed

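The authors deposited a table of read counts and a table of FPKM for 12 whole-lung libraries, with gene names, lengths and coordinates on GRCm39. Per the submitters' processing notes, the tools included CASAVA and STAR and the builds were listed as GRCm39 and mm39. The counting tool, its strand setting and the annotation release were not given in the sources used here. The deposited counts were used for all tests and the deposited FPKM values for levels between genes and 2 alternatives. Both tables were joined by gene ID.

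The test was edgeR 4.0.16 under R 4.3.3: filterByExpr kept 20229 genes, libraries were TMM-scaled, and a quasi-likelihood model with 3 group means was fitted to 12 libraries (9 residual degrees of freedom), with Benjamini-Hochberg adjustment over all genes tested and a threshold of 0.05. The SE of a log2 fold change is its size divided by the square root of the F statistic. CPM values are relative to the TMM-scaled total. A floor is 3 counts. A gene is called only by the edgeR test unless another tool is named.

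Alternatives were DESeq2 1.42.0, limma voom 3.58.1 with quality weights, scaling by RLE or upper quartiles, testing with no filter or with 1 CPM in 4 libraries, limma on log2 FPKM with a pseudocount of 1 or of 0.1 for genes that reached 0.5 FPKM in 4 libraries, fits of the groups compared only, leaving out each library, and, chosen after seeing the data, leaving out both libraries whose targeted gene goes against the label. The ligands and the lists were chosen with earlier results of these data known, and no list was tested as a set. The rule for ligands given in full took those called, those whose groups did not overlap at an unadjusted p under 0.05, the 5 of highest mean FPKM and the 3 of lowest p in each comparison. The other pairs of ligand and comparison given with a fold change were chosen after their values were seen. Promoters came from RefSeq tables on GRCm38.p6, a build other than that of the files, and were matched by symbol, which found 25 of 36 ligands. The reference annotation of that build was not used for coordinates. Of the chemokine receptors, 1 is not reported here.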

Additional observations from a re-analysis of the deposited data

Results flagged for a closer look

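Of 96 groups of 4 libraries checked, 13 held a library whose gap to the nearest other, divided by the range of the group, was above the critical value of Dixon's test. For independent, normally distributed values that test flags about 1 in 20 groups. The groups here share the same 12 libraries, and the CPM values were not checked for that distribution. That rate is therefore not a measure of how many flags chance would give here. Each flagged library was the highest of its group. The library labelled C3 KO 4 accounted for 10 of the 13, of which 9 were ligands and 1 was C3 itself.

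In the library labelled C3 KO 4, Ccl22 was at 30.9 CPM (6.76 to 8.44 CPM in the other C3 KO libraries), Ccl17 at 17.3 CPM (3.64 to 5.56 CPM), Cxcl2 at 13.9 CPM (0.805 to 2.603 CPM) and Cxcl13 at 11.4 CPM (2.499 to 2.95 CPM). Ccl8 was at 4.58 CPM there (0.611 to 0.878 CPM), Cxcl9 at 2.79 CPM (0.250 to 0.549 CPM), Cxcl3 at 2.30 CPM (0.222 to 0.289 CPM), Ccl12 at 2.20 CPM (0.636 to 0.820 CPM) and Ccl20 at 1.30 CPM (0.0278 to 0.145 CPM). C3 was at 1416 CPM in the same library, with 465 to 601 CPM in the other C3 KO libraries.

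In S1pr1 KO 1, Ccl22 was at 13.2 CPM, with 8.23 to 8.99 CPM in the other S1pr1 KO libraries, and Cxcl2 was at 7.82 CPM, with 0.558 to 1.51 CPM. For S1pr1, the library labelled S1pr1 KO 2 had 366 CPM, with 132 to 154 CPM in the other S1pr1 KO libraries. What sets these libraries apart was not tested.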

How the results depend on the processing

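The count of ligands called was 0 in the 3 comparisons under each alternative except DESeq2, which called 1 in S1pr1 KO against WT (Ccl28, 1.48), 1 in C3 KO against WT (Cx3cl1, −0.48) and 0 in S1pr1 KO against C3 KO, and leaving out each library gave 0 to 0. Among the pairs of ligand and comparison given with a fold change, signs reversed in C3 KO against WT alone, where leaving out 1 library gave log2 fold changes of −0.073 to 3.72 for Ccl20 and −0.025 to 1.05 for Ccl22, negative for both genes when the library labelled C3 KO 4 was left out. Ccl22 was at −0.025 without both libraries whose targeted gene goes against the label. The median of the tested ligands changed sign too. It was negative in S1pr1 KO against WT with no filter (−0.035), with a filter of 1 CPM (−0.028) and without the library labelled S1pr1 KO 2, in C3 KO against WT with voom (−0.12), with both FPKM settings (−0.068 and −0.12) and without WT 3 (−0.030), WT 4 (−0.046) or C3 KO 4 (−0.19), and positive in S1pr1 KO against C3 KO with voom (0.10) and without C3 KO 4 (0.24). The calls over all genes in S1pr1 KO against WT were 274 with edgeR, 1279 with DESeq2, 928 with voom, 171 with log2(FPKM + 1), 150 with log2(FPKM + 0.1), 473 without both such libraries and 2 to 571 with 1 library left out. In C3 KO against WT they were 2 with edgeR, 172 with DESeq2, 21 with voom, 6 with each FPKM setting, 1 with the 2 groups compared only, 31 without both such libraries and 1 to 32 with 1 left out. In S1pr1 KO against C3 KO they were 0 with edgeR, 317 with DESeq2, 36 with voom, 15 with no filter, 7 and 6 with the FPKM settings, 3 without both such libraries and 0 to 13 with 1 left out. The cause of these differences was not tested. Depth limits the ligands of low count (Ccl20, Cxcl3, Ccl28, Xcl1, Cxcl11 and Ccl1) to coarse levels. No paired analysis was possible because the labels number the libraries through the whole series and pair none across groups.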
